A study of Mus musculus with 12 samples.

Results

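The respiratory chain genes of embryonic mouse retina were described here in 12 RNA-seq libraries: 101 of the 19954 listed genes, of which 12 are encoded in mitochondrial DNA and 89 in the nucleus. Members were the protein-coding genes, 16220 in all, whose symbol begins with mt-, Nduf, Uqcr, Cox4 to Cox8 or Atp5, plus Sdha, Sdhb, Sdhc and Sdhd. The rule uses names alone and no measured value. Mutant retinas carried the genotype Six3-Cre:Tbr2f/f, in which Cre recombinase driven by Six3 sequences acts on floxed Tbr2 (gene symbol Eomes) in the developing eye field. Wildtype retinas were their controls, and all embryos had the strain C57BL/6 and an age of E15.5, a stage of mid to late gestation. Each library came from 12 retinas of 1 sex, with 3 pools (numbered 4, 5 and 6) of mutant males, wildtype males, mutant females and wildtype females. The retinas of a pool came from several litters, so every p-value here measures the spread between pools and not between embryos.

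The respiratory chain passes electrons from NADH and succinate to oxygen and pumps protons across the inner mitochondrial membrane, and ATP synthase uses the proton gradient to make ATP. Complexes I, III and IV and the ATP synthase (complex V) are each built from subunits of both genomes, while complex II (succinate dehydrogenase) is encoded by the nucleus alone. Mitochondrial genes are transcribed from both strands as long precursors that are cut into single messages, so their levels depend on copy number, processing and stability of those precursors as well as on transcription. Nuclear subunit genes are transcribed one by one, and the retina is known as a tissue with a high demand for ATP.

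By complex, the 89 nuclear genes held 44 of complex I (7 core subunits, 29 accessory subunits and 8 assembly factors), 4 of complex II, 8 of complex III, 17 of complex IV and 16 of complex V. Ndufa4 and Ndufa4l2 were counted with complex IV, to which the Ndufa4 protein belongs. The 12 mitochondrial genes held 7 of complex I, 1 of complex III, 3 of complex IV and 1 of complex V. The mitochondrial gene mt-Atp8 and the muscle-type paralogs of Cox6a and Cox8 were not analysed here.

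Total counts ran from 18514607 to 27072825 per library, and 16903 (mutant male 6) to 19242 genes (mutant female 4) had at least 1 count. Eomes, the targeted gene, stood at 21.2 to 27.4 CPM (counts scaled by the library total) in mutant males against 56.8 to 76.1 CPM in wildtype males, and at 9.62 to 16.1 CPM in mutant females against 53.4 to 64.6 CPM in wildtype females. All 10 retinal progenitor markers and all 10 markers of retinal neurons on fixed lists were present, with summed levels of 6566 to 8177 CPM and 1595 to 1806 CPM. Lens markers, of which 10 of 11 were in the table, summed to 5.78 to 1723 CPM in mutant libraries and to 8.99 to 711 CPM in wildtype libraries, so pools differed widely in lens RNA; its part in the results was not tested. In tissue pools, fewer cells of a type and less RNA per cell cannot be told apart.

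Mean levels within the mitochondrial genome split into a high and a low class. Per gene length, mt-Co1, the catalytic subunit of cytochrome c oxidase, was highest at a mean of 2910 FPKM (fragments per kilobase of gene length, scaled to the library total; 1047 to 3763 over the 12 libraries). It was followed by mt-Cytb, the cytochrome b of complex III, at 1866 FPKM and by mt-Nd1 at 1408, mt-Nd5 at 728, mt-Nd2 at 555, mt-Nd4 at 543 and mt-Nd6 at 352 FPKM, all subunits of the membrane arm of complex I. The other 5 lay far below. Mean levels were 16.2 FPKM for mt-Co2 and 13.9 FPKM for mt-Co3, the other two mitochondrial subunits of cytochrome c oxidase, 10.5 FPKM for mt-Atp6, the membrane subunit of ATP synthase through which protons pass, and 3.83 and 2.36 FPKM for mt-Nd4l and mt-Nd3 of complex I. The lowest mean of the high class was 352 FPKM and the highest mean of the low class 16.2 FPKM. Single libraries of the classes overlapped, since mt-Nd6 had a median of 75.6 FPKM and as little as 18.7 FPKM in wildtype male 6, while genes of the low class reached 27.0 FPKM.

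The 5 low genes were also those that other annotated genes matched nearly in full at 98% identity or more. In the GENCODE M21 annotation (mm10), a stretch of mitochondrial DNA inserted in chromosome 1 is annotated as consecutive genes of their own. Its gene Gm28661 matched 681 of the 684 bases of mt-Co2 with 0 mismatches, Gm10925 matched 678 of the 681 bases of mt-Atp6 with 0, and Gm28437 matched 783 of the 784 bases of mt-Co3 with 0. For mt-Nd4l, Gm10222 matched 294 of 297 bases with 0 mismatches, and for mt-Nd3, Gm28438 matched 345 of 348 bases with 1 mismatch. The match covered 63.6% of mt-Nd4, with 0 mismatches, and 31.8% of mt-Co1, with 6, and these genes stood at 543 and 2910 FPKM. The other 5 mitochondrial genes, which had no match at 98% identity or more, were at 352 to 1866 FPKM. Less similar nuclear copies exist for genes of the high class too: Gm13340 on chromosome 2 matched all 1545 bases of mt-Co1 at 97.6% identity, and Gm11408 on chromosome 4 all 519 bases of mt-Nd6 at 93.6%. Gm11410 on chromosome 4 matched 1142 of the 1144 bases of mt-Cytb at 92.9%.

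Reads from an identical stretch cannot be assigned to one of the 2 places by their sequence. Whether the counting dropped such reads is not given in the sources used here, and its part in the low values was not tested. The counts of the 5 covered genes, and in part those of mt-Nd4 and mt-Co1, are therefore uncertain as levels of the mitochondrial messages. The first 60 bases of mt-Co2 and of mt-Nd3 are shown with their nuclear copies because they let a reader see how little separates a gene from its copy. Capitals mark the base that differs between a gene and its copy, which is the substitution T3C, counted from 1 at the first base of mt-Nd3, and mt-Co2 and its copy have none. Coordinates are mm10, with the sequence of each gene given in its own direction (mt-Co2 chrM:7013-7072, plus strand; Gm28661 chr1:24615506-24615565, minus strand; mt-Nd3 chrM:9459-9518, plus strand; Gm28438 chr1:24613060-24613119, minus strand).
mt-Co2: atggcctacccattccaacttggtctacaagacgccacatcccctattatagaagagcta
Gm28661: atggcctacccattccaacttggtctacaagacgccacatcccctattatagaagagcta
mt-Nd3: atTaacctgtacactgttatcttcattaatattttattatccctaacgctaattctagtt
Gm28438: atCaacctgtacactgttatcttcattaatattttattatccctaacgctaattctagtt

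**Figure D1:**
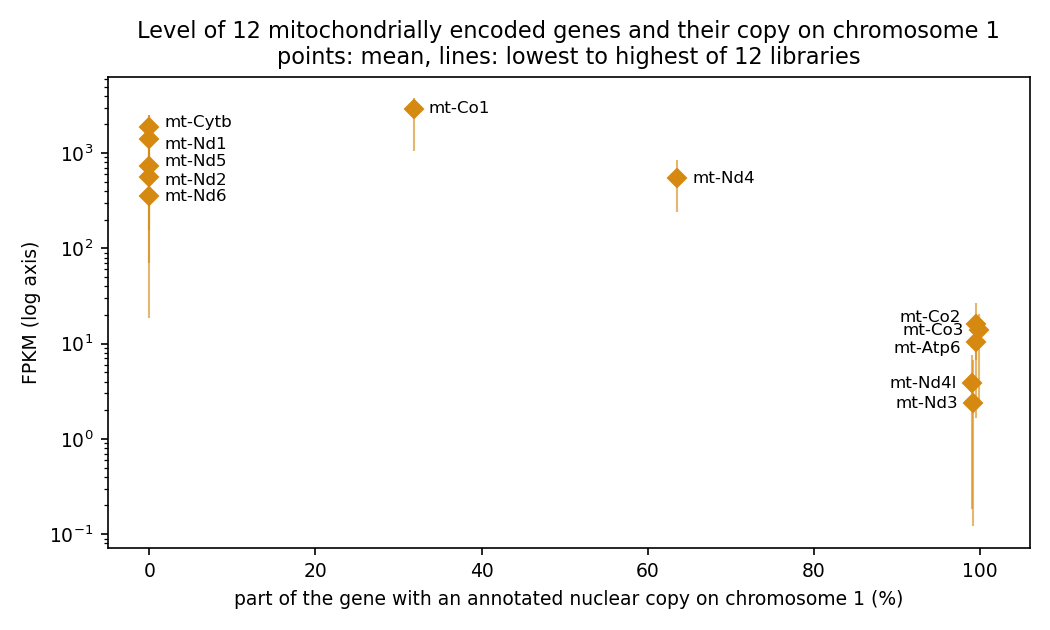
Level of each of the 12 mitochondrially encoded genes (FPKM, log axis) against the part of the gene, in percent, with an annotated nuclear copy on chromosome 1. Points are means of 12 libraries and lines run from the lowest to the highest library. The 5 genes that are at least 98.99% covered have means of 2.36 to 16.2 FPKM, and the other 7 of 352 to 2910 FPKM.

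One gene, mt-Nd6, lies on the other strand of the mitochondrial genome from the 11 others. Its last 14 bases are also the last 14 bases of mt-Nd5 on the opposite strand. Without a stated strand setting, reads there cannot be told apart between them. Precursors are made from both strands, so without that setting a read elsewhere in mt-Nd6 could also come from the opposite strand. The counts of mt-Nd6 are therefore uncertain as levels of its message. The end of each gene is shown in its own direction, with the shared bases in capitals, one run being the reverse complement of the other (mt-Nd5 chrM:13522-13565, plus strand; mt-Nd6 chrM:13552-13595, minus strand; GENCODE M21 transcripts, mm10).
mt-Nd5: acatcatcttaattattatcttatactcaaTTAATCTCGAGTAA
mt-Nd6: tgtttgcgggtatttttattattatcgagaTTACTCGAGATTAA

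The summed mitochondrial share of counts varied widely between pools of the same genotype and sex. It was 1.33%, 0.694% and 0.375% of all counts in mutant males 4, 5 and 6, against 0.920%, 1.47% and 0.838% in wildtype males. In mutant females 4, 5 and 6 it was 1.61%, 0.9004% and 0.987%, against 1.41%, 1.10% and 1.38% in wildtype females. The lowest pool (mutant male 6) and the highest (mutant female 4) were both mutant, and the genotypes overlapped in both sexes. Mutants averaged 0.982 ± 0.440% and wildtypes 1.19 ± 0.272% (SD, n = 6 each), a difference of -0.20 percentage points that is smaller than either SD. Without mutant male 6 the difference was -0.083 percentage points.

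The 89 nuclear genes together took a share that ranged less between pools, from 0.800% to 0.920%. They held 0.843%, 0.881% and 0.842% of counts in mutant males 4, 5 and 6, against 0.876%, 0.800% and 0.920% in wildtype males. The shares were 0.814%, 0.855% and 0.897% in mutant females, against 0.817%, 0.872% and 0.813% in wildtype females. Means were 0.855 ± 0.0298% in mutants and 0.850 ± 0.0470% in wildtypes (SD, n = 6 each). The ratio of mitochondrial to nuclear counts consequently ran from 0.445 in mutant male 6 to 1.97 in mutant female 4. The mitochondrial sums hold few counts of the 5 genes matched nearly in full on chromosome 1. Of these, mt-Co2 was highest at a mean of 247 counts, against 99243 for mt-Co1. The summed share, this ratio and shares within the sum are therefore uncertain for the mitochondrial messages as a whole.

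**Figure D2:**
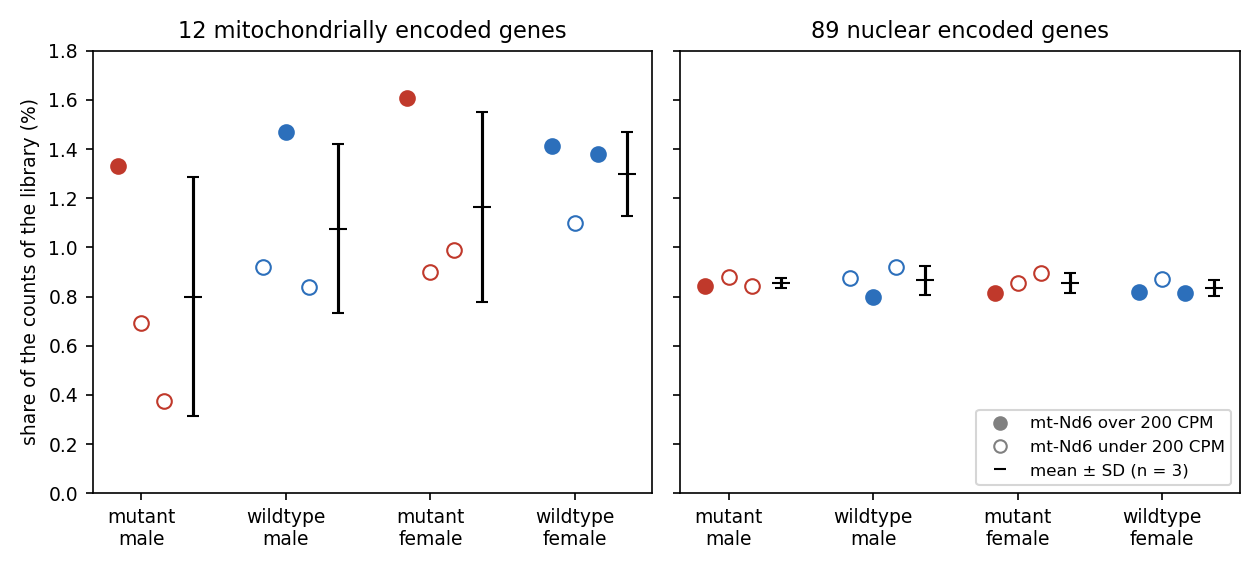
Share of the counts of a library, in percent, taken by the 12 mitochondrially encoded genes (left panel) and by the 89 nuclear encoded genes (right panel) in mutant and wildtype pools of each sex. Each point is 1 library, filled where mt-Nd6 was above 200 CPM, and bars are the mean ± SD of 3 libraries. The mitochondrial share spans 0.375% to 1.61% and the nuclear share 0.800% to 0.920%.

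The gene mt-Nd6 was counted at 2 widely separated levels among the pools. It was at 375 CPM in mutant male 4 but at 13.9 and 30.1 CPM in mutant males 5 and 6, against 21.3, 419 and 9.70 CPM in wildtype males 4, 5 and 6. In mutant females 4, 5 and 6 it was at 484, 18.4 and 19.0 CPM, against 381, 48.4 and 373 CPM in wildtype females. The 5 pools above 200 CPM (mutant male 4, wildtype male 5, mutant female 4 and wildtype females 4 and 6) came from every genotype and sex. They held 1.33% to 1.61% mitochondrial counts, against 0.375% to 1.10% in the other 7 pools.

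Most other mitochondrial genes were higher in those 5 pools too, but by unequal factors. mt-Nd2 had 956 to 1171 CPM in them and 73.2 to 420 CPM in the other 7, with medians 3.56 times apart. The ratio of medians was 2.66 for mt-Nd1, 2.52 for mt-Atp6, 2.02 for mt-Co3, 1.88 for mt-Nd4, 1.85 for mt-Co2 and 1.60 for mt-Nd5, and none of these 7 genes overlapped between the 2 sets of pools. The smallest ratios were 1.37 for mt-Cytb and 1.26 for mt-Co1, and these 2 genes overlapped between the sets, as did mt-Nd4l. mt-Nd3 had 29 to 53 counts in the 5 pools and 1 to 3 counts in the others. In all, 8 of the 11 other mitochondrial genes (72.7%) were higher without overlap in the 5 pools and 0 were lower, where 10.4% of the 13701 genes of at least 1 CPM were higher and 7.08% lower. One of the 8, mt-Nd3, averaged 0.822 CPM and so lay under that floor. The mitochondrial genes share their genome and pools with mt-Nd6, which set the division, and are not separate observations.

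The share of mt-Co1 among mitochondrial counts followed the same division. It was 36.2% to 38.6% in the 5 pools high in mt-Nd6 and 43.1% to 47.3% in the other 7. Of the 87 nuclear members of at least 1 CPM, 1 was higher without overlap in the 5 pools (1.15%) and 12 were lower (13.8%). Over all 13701 genes of that level, 10.4% were higher and 7.08% lower. The summed nuclear share was 0.800% to 0.843% in the 5 pools against 0.842% to 0.920% in the other 7.

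**Figure D3:**
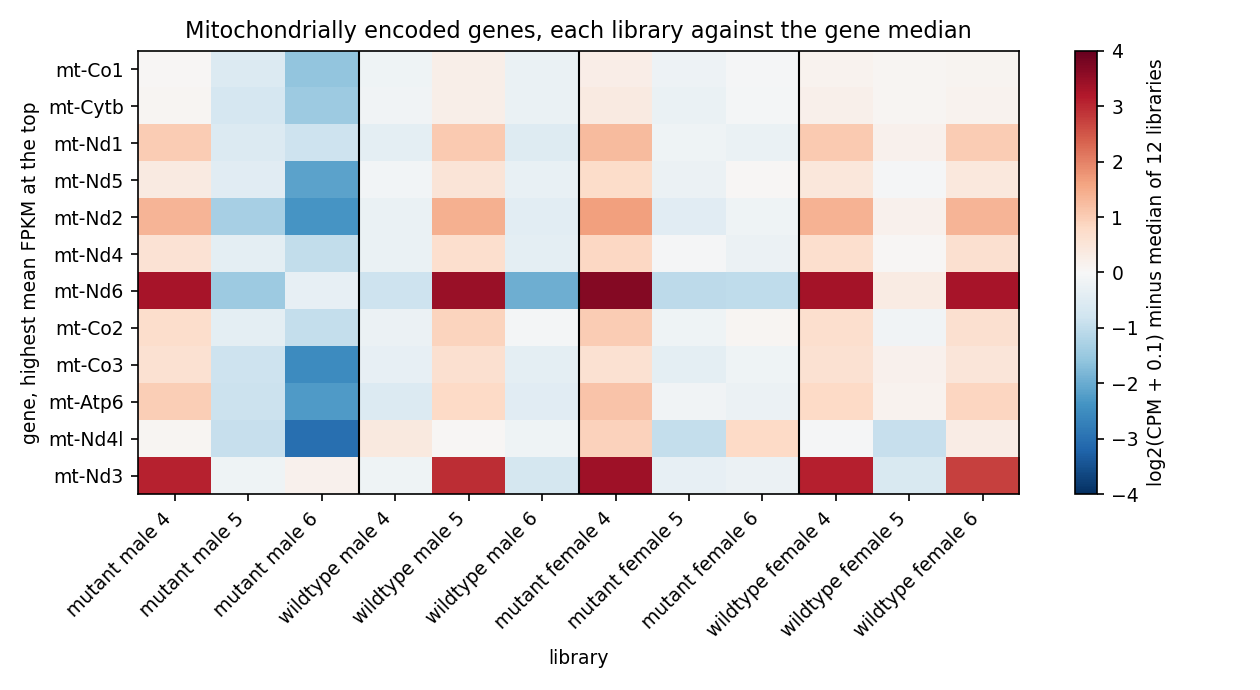
Level of the 12 mitochondrially encoded genes in each library as log2(CPM + 0.1) minus the median of the gene over the 12 libraries (colour scale), with libraries grouped by genotype and sex and genes ordered by mean FPKM. The 5 libraries high in mt-Nd6 are above the median of nearly every gene, most for mt-Nd6 and mt-Nd3, and mutant male 6 is lowest for 10 of the 12 genes.

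Mutant male 6 was the lowest library for 10 of the 12 mitochondrial genes, and wildtype male 6 for the other two, mt-Nd6 and mt-Nd3. Mutant female 4 was the highest library for 11 of 12, the exception being mt-Co3, which was highest in wildtype male 5 at 16.1 CPM. mt-Co1 had 4924, 3253 and 1618 CPM in mutant males 4, 5 and 6, against 4288, 5677 and 3963 CPM in wildtype males. In mutant females 4, 5 and 6 it had 5814, 4194 and 4664 CPM, against 5293, 5062 and 5211 CPM in wildtype females. mt-Nd5 had 1625, 914 and 285 CPM in mutant males, against 1163, 1788 and 1021 CPM in wildtype males. In neither gene did mutant and wildtype libraries of 1 sex stand apart.

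Nuclear members varied far less from pool to pool. Over the 12 libraries, the standard deviation of log2 CPM had a median of 0.14 for the 83 nuclear members of at least 10 CPM (0.06 to 1.19), of 0.75 for the 9 mitochondrial genes of that level (0.49 to 2.28), and of 0.15 for all 10169 genes of that level. The steadiest nuclear members were Sdhd at 0.060, a membrane anchor of complex II, Atp5j2 at 0.070, a small subunit of the ATP synthase membrane part, Sdha at 0.074, the succinate-oxidising flavoprotein of complex II, and Atp5b at 0.075, the catalytic beta subunit of ATP synthase. Sdha ranged from 212 to 254 CPM in mutants and from 229 to 251 CPM in wildtypes. Complex II, the only complex with no mitochondrial subunit, had the lowest median spread of the 5 complexes, 0.08 over 4 genes.

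Uqcrb, a small subunit of complex III (chromosome 13, 66900617 to 66905378), was the most variable nuclear member. It had 26.2, 11.1 and 1.35 CPM in mutant males 4, 5 and 6, against 25.8, 24.2 and 22.1 CPM in wildtype males. In mutant females 4, 5 and 6 it had 27.0, 13.5 and 23.3 CPM, against 24.6, 23.8 and 23.7 CPM in wildtype females. Thus 3 mutant pools lay below all wildtype pools, and mutant male 6, with 25 counts, lay lowest. The log2 fold change was -0.53 (SE 0.42) and did not pass the test (edgeR, adjusted p = 0.918). A processed pseudogene, Gm2962, matches 39.8% of the Uqcrb transcript at 98% identity or more, so these counts are uncertain. Next came Ndufs5, an accessory subunit of complex I, with a spread of 0.53 and 46.9% of its transcript matched by the pseudogene BC002163. It was followed by Ndufaf4, an assembly factor of complex I (0.42, 14.5 to 34.6 CPM in mutants and 16.6 to 30.9 CPM in wildtypes), and Ndufa4l2 (0.36), a paralog of Ndufa4 known to be induced by hypoxia. Some steadier members had such matches too. Other genes matched 84.1% of the Ndufs3 transcript and 81.3% of that of Ndufaf2, with spreads of 0.12 and 0.14. The Ndufaf2 transcript that was matched has 2404 bases and the listed gene 679, so its match may lie largely outside the counted bases. The part of such matches in the spread was not tested.

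**Figure D4:**
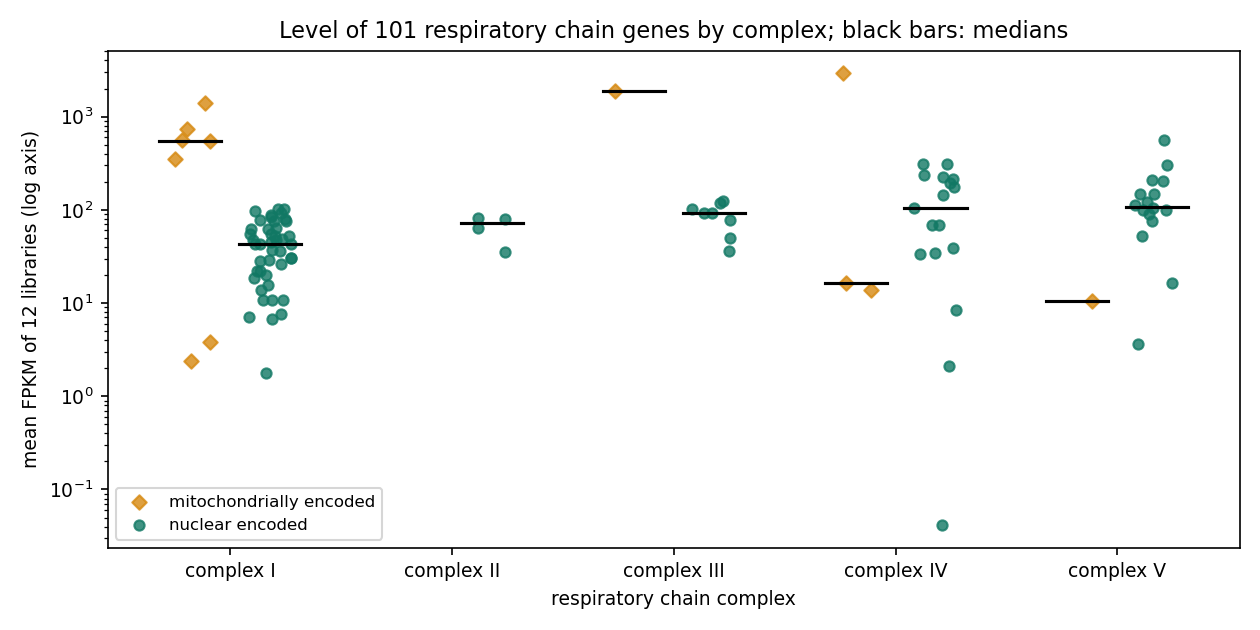
Mean FPKM of 12 libraries (log axis) of the 101 respiratory chain genes by complex, with mitochondrially encoded genes as diamonds and nuclear encoded genes as circles; black bars are medians. The nuclear medians run from 43.5 FPKM in complex I to 108 FPKM in complex V, and 7 of the 12 mitochondrial genes lie above 300 FPKM.

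The median level of the nuclear genes differed between complexes. The gene sets compared are unlike, since that of complex I includes 8 assembly factors, and FPKM depends on the listed gene length. Over the means of 12 libraries, the median FPKM was 43.5 for the 44 genes of complex I, 71.6 for complex II, 92.3 for complex III, 104 for complex IV and 108 for complex V, and 62.6 for all 89. The highest of all was Atp5b at 561 FPKM, followed by Cox8a at 313 and Cox6a1 at 310, small subunits of cytochrome c oxidase, and Atp5a1 at 305, the alpha subunit of ATP synthase. The leading genes of the other complexes were Uqcrc1 at 125 and Uqcrh at 118 FPKM in complex III, a core protein and the hinge protein, Ndufb9 and Ndufa2 at 102 FPKM each in complex I, accessory subunits, and Sdha at 82.3 and Sdhb, the iron-sulphur subunit, at 79.1 FPKM in complex II. At the low end, 8 nuclear genes lay below 10 FPKM, and Cox7b2, whose human counterpart is known from testis, had 0 counts in 9 libraries and at most 3 in the others. Ndufb2, an accessory subunit of complex I, was the lowest gene of its complex at 1.79 FPKM, computed over a listed length of 4371 bases.

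Tissue-type paralogs were present beside the general forms at lower levels. Cox4i2, the isoform known from lung and hypoxic cells, averaged 34.2 ± 4.70 FPKM and Cox4i1 223 ± 15.4 FPKM (SD, n = 12). Cox4i2 made up 12.5 ± 1.38% of their sum in mutants (9.83% to 13.9%) and 14.1 ± 1.31% in wildtypes (12.0% to 15.6%; SD, n = 6 each), with overlap between the genotypes. Its log2 fold change was -0.18 (SE 0.10, edgeR adjusted p = 0.918). Ndufa4l2 averaged 39.3 ± 8.89 FPKM beside Ndufa4 at 236 ± 28.5 FPKM (SD, n = 12), and made up 8.43% to 19.9% of their sum in mutants and 11.8% to 19.1% in wildtypes.

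The muscle and testis forms were low beside the general ones. Cox7a1, the heart and muscle form, averaged 2.13 FPKM against 104 FPKM for Cox7a2, and Cox6b2, the testis form, 8.52 FPKM against 212 FPKM for Cox6b1. Skeletal muscle markers were nearly absent, with 2 of the 13 in the table at 1 CPM or more and sums of 9.45 to 12.2 CPM in mutants and 8.02 to 11.8 CPM in wildtypes. The related gene Cox7a2l, whose protein helps complexes III and IV associate, averaged 146 FPKM. Atp5g1, Atp5g2 and Atp5g3, which encode the same mature subunit c of ATP synthase, supplied 3.85%, 47.2% and 49.0% of their summed FPKM. Mutant male 6 departed from that balance, with 57.0% from Atp5g2 and 38.8% from Atp5g3, against 45.2% to 47.3% and 49.1% to 51.0% in wildtype libraries.

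The promoters of the nuclear genes were searched for motifs of factors known to control them, since nuclear subunit genes are known to share some regulators. RefSeq promoters (GRCm38.p6, 250 bases before to 50 after a start) were found for 72 of the 89 genes, 77 promoters in all. The core motif of NRF1 (nuclear respiratory factor 1), GCGCATGC, occurred on either strand in 15.6% of them, against 11.0% of the promoters of mitochondrial ribosomal protein genes and 4.54% of the 15137 promoters of listed protein-coding genes. The ETS motif bound by GABP, CCGGAAG, occurred in 22.1%, 32.9% and 14.4%, the oestrogen-related receptor motif AAGGTCA in 10.4%, 5.48% and 3.47%, and the YY1 motif AAGATGGC in 11.7%, 16.4% and 3.64%. The cyclic AMP response element TGACGTCA (5.19%, 2.74% and 2.76%) and the box TATAAA (9.09%, 6.85% and 7.75%) completed the search. These shares describe windows of fixed length and are not binding sites, and overlaps between motifs were not removed.

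The stretches of 2 promoters with the NRF1 core are shown, one from complex II and one from complex IV, because these genes are among the highest of their complexes. Capitals mark GCGCATGC or its reverse complement GCATGCGC, which overlap in Cox6a1 (Sdhb chr4:140961191-140961250, plus strand, motif 54 bases before the start; Cox6a1 chr5:115349087-115349146, minus strand, first motif 162 bases before the start).
Sdhb: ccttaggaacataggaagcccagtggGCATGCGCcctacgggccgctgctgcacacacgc
Cox6a1: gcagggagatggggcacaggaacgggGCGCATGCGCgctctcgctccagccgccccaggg
Neither gene differed between genotypes past the threshold: Sdhb had 99.1 ± 5.35 CPM in mutants and 95.7 ± 5.52 CPM in wildtypes, and Cox6a1 198 ± 25.0 CPM in mutants and 187 ± 20.2 CPM in wildtypes (SD, n = 6 each).

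The comparison of mutant with wildtype over both sexes asked whether loss of Tbr2 in the retina changed these genes. No respiratory chain gene passed the test: of 100 members tested (12 mitochondrial and 88 nuclear, Cox7b2 being too low), 0 had an adjusted p under 0.05 by edgeR's quasi-likelihood test, the lowest being 0.918. Over all 15467 genes tested, 0.0259% were called (4 genes). DESeq2 called 0.097% of genes and limma voom 0.0323%, in each case 0 members. In the authors' deposited table, a share of 0.0978% of genes had an adjusted p under 0.05, again with 0 members, whose lowest adjusted p was 0.951.

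All 12 mitochondrial genes had a negative log2 fold change, mutant over wildtype, with a median of -0.25 (-0.42 to -0.12) and a median SE of 0.39. The median was -0.03 for the nuclear genes (38 positive, 50 negative; median SE 0.08) and -0.01 for all genes tested. The 12 mitochondrial genes share their pools and their precursors, and so are not 12 separate observations. The largest was mt-Nd2 at -0.42 (SE 0.59), with 493 ± 457 CPM in mutants and 659 ± 358 CPM in wildtypes. mt-Cytb, at -0.32 (SE 0.21), had 1923 ± 727 CPM in mutants and 2348 ± 303 CPM in wildtypes (SD, n = 6 each). The mitochondrial median depended on single pools: it was -0.03 without wildtype male 5, -0.09 without mutant male 6 and -0.57 without mutant male 4. It was 0.12 among the 5 pools with high mt-Nd6 and -0.54 among the other 7.

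Ndufb2 was the 1 member with an unadjusted p under 0.05, where 2.92% of all genes had one. It encodes an accessory subunit in the membrane arm of complex I and lies on chromosome 6 (39592574 to 39603382). It had 8.15, 7.09 and 4.59 CPM in mutant males 4, 5 and 6, against 9.15, 9.49 and 7.77 CPM in wildtype males. In mutant females it had 7.67, 7.09 and 7.04 CPM, against 8.20, 8.54 and 8.94 CPM in wildtype females. Every mutant female pool was below every wildtype female pool, while the males overlapped, and the log2 fold change was -0.33 (SE 0.13, edgeR adjusted p = 0.918). Ndufb2 was picked by its p in these same libraries, so the separation in females is no further evidence.

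**Figure D5:**
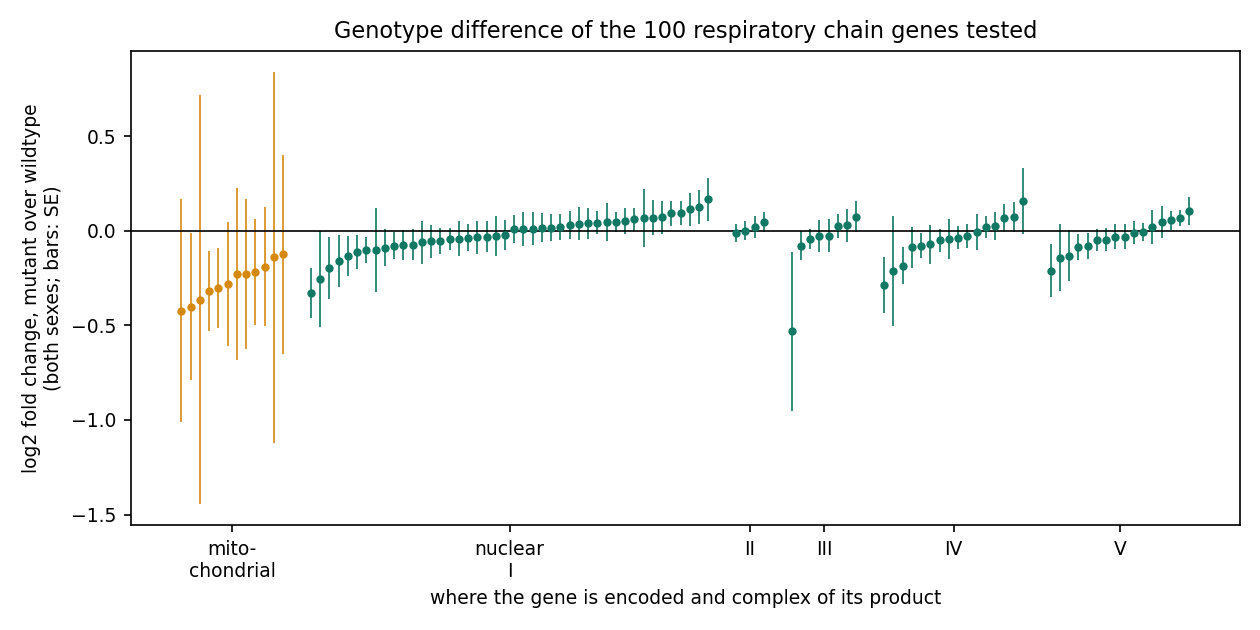
Log2 fold change, mutant over wildtype over both sexes, of the 100 respiratory chain genes tested, ordered by size within mitochondrially encoded genes and nuclear genes of complexes I to V. Bars are standard errors from edgeR. The mitochondrial genes lie at -0.42 to -0.12 with wide errors and the nuclear genes between -0.53 (Uqcrb) and 0.17.

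By complex, the nuclear medians were -0.01 for complex I (22 positive, 22 negative), 0.01 for complex II (3 and 1), -0.03 for complex III (3 and 5), -0.04 for complex IV (5 and 11) and -0.03 for complex V (5 and 11). The 7 nuclear core subunits of complex I had a median of 0.05 and the 8 assembly factors of -0.07. Called members numbered 0 in each of these groups. DESeq2 and limma voom likewise called 0 members in males, in females and for the interaction.

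In males alone, 0 of 99 members were called, as were 0.0% of all 14945 genes. The mitochondrial median was -0.43 over 11 genes and the nuclear median -0.06 over 88 (29 positive, 59 negative). The mitochondrial median turned positive without mutant male 6 (0.036) or without wildtype male 5 (0.13), and was -1.16 without mutant male 4 and -0.13 without mutant male 5. Atp5k, the small subunit e of the ATP synthase membrane part (chromosome 5, 108433244 to 108434448), was the 1 member with an unadjusted p under 0.05, beside 1.41% of all genes. It had 29.7, 22.1 and 21.8 CPM in mutant males 4, 5 and 6, against 39.2, 29.6 and 38.6 CPM in wildtype males, with mutant male 4 barely above the lowest wildtype pool. Its log2 fold change was -0.54 (SE 0.17, edgeR adjusted p = 0.994).

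In females alone, 0 of 100 members were called, and 0.00669% of all genes (1 gene) were. The mitochondrial median was -0.23 and the nuclear median 0.03 (55 positive, 33 negative). The mitochondrial median was -0.68 without mutant female 4, -0.43 without wildtype female 5, -0.13 without wildtype female 6, -0.080 without wildtype female 4, -0.025 without mutant female 6 and -0.0033 without mutant female 5. An unadjusted p under 0.05 was found for 3 of the 100 members, near the share of 2.63% over all genes. All 3 were positive and accessory subunits of complex I, a group of 29 tested members with 19 positive and 10 negative. Ndufa1, encoded on the X chromosome (37187588 to 37191163), had 36.4, 31.9 and 38.1 CPM in mutant females 4, 5 and 6, against 26.4, 31.5 and 24.4 CPM in wildtype females, a log2 fold change of 0.37 (SE 0.11, edgeR adjusted p = 0.986). Ndufb8 (chromosome 19, 44548572 to 44555440) had 48.4, 47.7 and 55.4 CPM in mutant females, against 41.4, 43.8 and 38.9 CPM in wildtype females, a log2 fold change of 0.29 (SE 0.09). Ndufb6 had 22.0, 20.2 and 23.3 CPM in mutant females, against 18.2, 19.0 and 18.8 CPM in wildtype females, a log2 fold change of 0.22 (SE 0.09). The gene Smim27, which overlaps Ndufb6 on the opposite strand of chromosome 4, matched 39.0% of the Ndufb6 transcript at 98% identity or more. Without a stated strand setting, the counts of Ndufb6 are uncertain. In each of these 3 genes mutant and wildtype females did not overlap, but the genes were picked by their p in these same libraries. The share of all genes without overlap was not computed.

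The interaction asked whether the genotype difference itself differed between females and males. No member was called, as was 0.0% of all genes. An unadjusted p under 0.05 was found for 4 members, where 1.73% of all genes had one. The difference of the log2 fold changes, female minus male, was 0.43 (SE 0.13) for Ndufb8, 0.81 (SE 0.29) for Atp5k, 0.61 (SE 0.27) for Ndufa1 and -0.30 (SE 0.13) for Ndufc2, another accessory subunit of complex I, and the edgeR adjusted p was 0.99998 for each. Ndufc2 had 67.8 ± 6.42 CPM in mutant males and 59.7 ± 6.83 CPM in wildtype males, and 59.2 ± 2.33 CPM in mutant females and 64.1 ± 1.85 CPM in wildtype females (SD, n = 3 each).

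Genes outside the rule that serve the same machinery were described by fixed lists, and 0 of their members were called over both sexes. The 76 mitochondrial ribosomal protein genes, which translate the mitochondrial messages, had a median log2 fold change of -0.01 (35 positive, 41 negative). The 16 regulators of biogenesis had a median of -0.02, the 19 genes of mitochondrial DNA upkeep and transcription of -0.08 (5 positive, 14 negative) and the 22 of mitochondrial RNA processing and stability of -0.05 (7 positive, 15 negative). The 46 assembly factors and carriers outside the rule and the 16 stress response genes had medians of 0.00, and the 21 glycolysis genes of 0.01. The smallest unadjusted p among these lists was that of Asns, the asparagine synthetase gene known as a target of the integrated stress response. It had 39.9 ± 1.69 CPM in mutants and 44.4 ± 3.31 CPM in wildtypes (SD, n = 6 each), a log2 fold change of -0.16 (SE 0.06, edgeR adjusted p = 0.918). Pfkp, a phosphofructokinase of glycolysis, followed at 92.6 ± 13.5 CPM in mutants and 107 ± 13.3 CPM in wildtypes (log2 fold change -0.21, SE 0.09).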

How the data were processed

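RNA was sequenced from 12 pools of embryonic retina. The submitters' processing notes name CASAVA, STAR 2.5, HTSeq 0.6.1 and DESeq2 with the build mm10. The sources used here give neither the annotation release nor the strand setting of the counting, nor how reads with several matches were treated. Per the file headers, the authors deposited raw counts per gene and library, FPKM values scaled by gene length and library total, and log2 fold changes with p-values of their own comparison. Separate tables of males and females were not used.

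Counts were tested with edgeR 4.0.16 (R 4.3.3): TMM scaling, filterByExpr, two-sided quasi-likelihood test, Benjamini-Hochberg adjustment over all genes tested and a threshold of 0.05, with genotype and sex as terms over 12 libraries, genotype alone within a sex, and the interaction. Each SE divides the absolute log2 fold change by the root of its F statistic. Alternatives were DESeq2 1.42.0, limma 3.58.1 voom, other scalings, no filter, a replicate block, a term for the library set, fits within each set, and each library left out. CPM are counts over the library total, and 200 CPM of mt-Nd6 divided the library sets. Each fit was also run on simulated counts, drawn independently for each gene. These lack the spread between pools that the mitochondrial genes share, so they do not bear on the mitochondrial differences.

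For numbers 4, 5 and 6, deviations of mutant and wildtype libraries of the same number correlated at 0.210, 0.213 and 0.138 in females. In males the correlations were -0.21, 0.0082 and 0.292. Unlike numbers were not compared, so pairing was not established in either sex. Nothing in the labels says what a number shares. Transcripts were matched with blastn (BLAST+ 2.17.0; at least 50 bases at 98% identity).

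The members, lists and tests were chosen with earlier results of these data known. Named genes were the mitochondrial members, nuclear members with an unadjusted p under 0.05 and a mean of at least 1 CPM, the 2 highest of each complex, paralog sets, and the 4 most and 4 least variable members of at least 10 CPM.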

Additional observations from a re-analysis of the deposited data

Results flagged for a closer look

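Over the named genes and the 2 summed shares, 6 of 94 sets of 6 libraries of 1 genotype held a library at one end far from the rest by Dixon's criterion, where chance gives about 1 in 20. Mutant male 6 accounted for 3 of them. Ndufa4 was at 79.6 CPM there and at 116 to 125 CPM in the other mutant libraries. Ndufb2 was at 4.59 CPM there, with 7.04 CPM as the next value, and Atp5g2 was at 201 CPM there, with 156 CPM as the next value. Mutant female 6 stood out for Cox4i1 at 189 CPM, with 173 CPM as the next value. Wildtype male 6 stood out for Cox6b2 at 7.72 CPM, next to 4.70 CPM, and for Cox7a1 at 1.39 CPM, next to 0.850 CPM. Mutant male 6 was also the library with the fewest genes detected (16903) and the lowest mitochondrial share (0.375%), and the part of either in these values was not tested.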

How the results depend on the processing

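The count of called respiratory chain genes was 0 in every comparison and under every alternative run. The count over all genes in both sexes was 4 as reported, 15 with DESeq2, 9 with a term for the library set, 2 with the replicate block, and 1 to 5 with each library left out in turn, being 1 without mutant male 5, wildtype male 5, wildtype male 6, mutant female 6 or wildtype female 4 and 2 without mutant male 4, wildtype male 4 or wildtype female 5. The cause was not tested. In females the replicate block called 2 genes against 1, with 0 members in either. DESeq2 called 6 genes against 0 in males and 10 against 1 in females. Over both sexes, the mitochondrial median log2 fold change kept its sign with each library left out (-0.57 to -0.03), was -0.43 with the replicate block and -0.13 with the library set as a term, and was positive (0.12) among the 5 libraries with high mt-Nd6; in males it turned positive without mutant male 6 (0.036) or wildtype male 5 (0.13), and in females it was -0.00020 with the library set as a term. The nuclear median was 0.035 among those 5 libraries against -0.03 as reported, and -0.04 to 0.00 with a library left out. The difference in mitochondrial share was 0.047 percentage points among the 5 libraries and -0.21 among the other 7. The library sets were divided by mt-Nd6, itself a mitochondrial member. Mitochondrial values within a set, or with the set as a term, are therefore descriptions and no check on the genotype difference. Of 941 alternative values of the 45 named genes, 857 kept the sign and 84 had the other sign, with 0 called and a lowest adjusted p of 0.245. Levels of the 5 mitochondrial genes nearly fully matched on chromosome 1, and in part of mt-Nd4 and mt-Co1, are uncertain. Those of mt-Nd6 are uncertain without a stated strand setting. Counts of mt-Nd3 were 1 to 3 in 7 libraries, and intervals between pools do not cover embryos.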
